A study of Mus musculus with 16 samples.

Results

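A set of 10 genes of eicosanoid production and breakdown was examined in the inguinal white fat, a subcutaneous depot, of mice given an antibody against PDGFcc. They were picked by symbol, and Alox12 was picked because it was higher in the antibody-treated mice. The others are the lipoxygenases Alox5 and Alox15, the 5-lipoxygenase partner Alox5ap, leukotriene C4 synthase (Ltc4s), the cyclooxygenases Ptgs1 and Ptgs2, the prostaglandin synthases Ptges and Ptgds, and the prostaglandin-degrading enzyme Hpgd. Rows were found for 9 of the 10 among 16091 genes, and Ptgds was not analysed here. PDGFcc signals through PDGFRA, a receptor carried by the precursors of adipocytes, and the title of the series speaks of adipogenesis under the antibody.

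Poly-A RNA was sequenced in 16 libraries, all from C57BL6/J mice, in 4 groups of 4: high-fat diet with antibody, high-fat diet untreated, control diet with antibody and control diet untreated. Per the labels, the antibody (AF1447) was injected into the peritoneum as a dose of 50 mg/kg (volume 100 µl, in PBS), repeated every 2 days over 2 weeks, in mice 6 weeks old. No group carries an engineered allele. The sources used here do not give whether the untreated mice had a control injection, the length of the diets, or whether each library was a separate animal. The p-values therefore measure only the spread among these libraries, which may be technical in part.

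Eicosanoids are signalling lipids made from arachidonic acid after phospholipases release it from membranes. Lipoxygenases turn it into hydroxy fatty acids and leukotrienes, whereas cyclooxygenases turn it into a common precursor from which separate synthases make prostaglandins and thromboxane. In fat, prostaglandins act on adipocytes and their progenitors, and prostaglandin E restrains lipolysis through the receptor encoded by Ptger3.

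Values are the authors' normalized counts, and library totals lay between 24.02 and 28.15 in units of 1e6. Of all genes, 14189 were tested with limma on log2(value + 1), and 1902 were left out as low. All 9 measured members passed that filter, Alox15 only through antibody libraries. The adipocyte markers, 6 of 6 in the table, summed to between 392000 and 560700 in every library. Some libraries stood apart. Skeletal muscle markers summed to 492300 in untreated high-fat replicate 2 and to between 129700 and 163600 in 3 control-diet antibody libraries, against 29000 or less in the other libraries. Untreated control-diet replicate 3 had the highest total. The 2 untreated libraries numbered 1 lay near the other diet group for several genes below: without the high-fat one, 1952 genes passed in the comparison of diets in untreated mice, and without the control-diet one 4115 passed, against 1157 with all libraries. Whether the diet labels of these 2 libraries were exchanged was not tested, and every value below uses the labels as given. Results called between the diets in untreated mice are given with and without the untreated libraries named here. The 3 control-diet antibody libraries with high muscle sums make up most of their group and were left out only 1 at a time.

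Per length of exon, Ltc4s had the highest level of the 9, at a mean of 1615 normalized counts per kb over the 16 libraries. Hpgd (855 per kb), Alox5ap (591 per kb) and Ptges (553 per kb) followed, and the ranges of these 3 over libraries overlapped. Ptgs1 (92.8 per kb) and Alox5 (79.8 per kb) also overlapped one another. At the bottom were Alox12 (16.4 per kb), Ptgs2 (10.7 per kb) and Alox15 (8.03 per kb), whose ranges overlapped too. The highest library of Alox12 (38.7 per kb) was just above the lowest library of Alox5 (38.12 per kb). Every library of Ltc4s (at least 1179 per kb) lay above every library of Hpgd (at most 1153 per kb), and every library of Ptges (at least 311 per kb) lay above every library of Ptgs1 (at most 115 per kb).

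**Figure D1:**
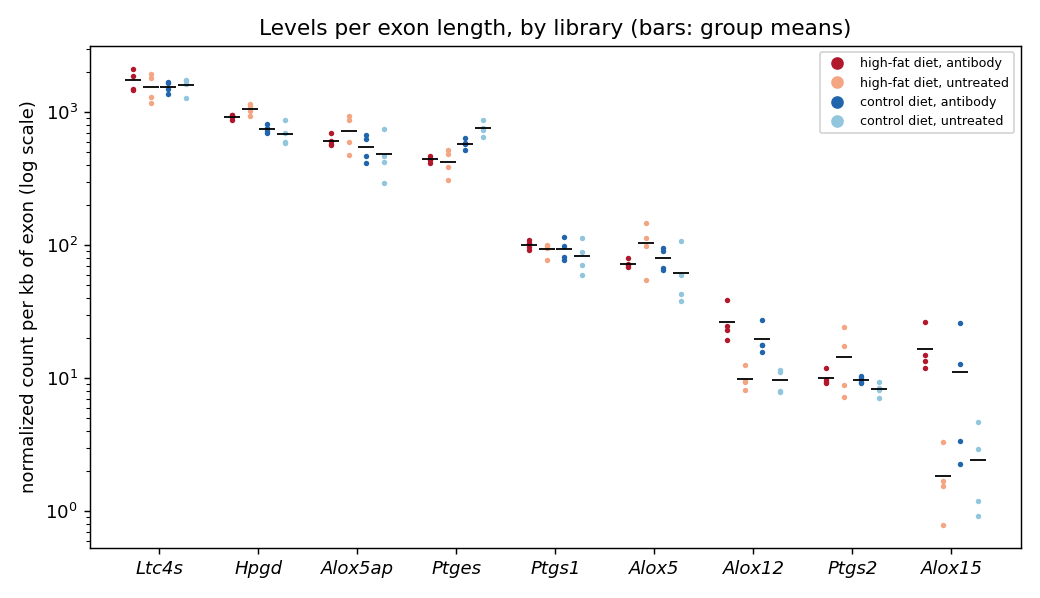
Normalized counts per kb of exon (log axis) for the 9 genes, ordered by mean level, with 1 point per library and a bar at each group mean. The means fall from Ltc4s to Alox15, and Alox12 and Alox15 lie among the 3 lowest.

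Alox12 encodes the platelet-type 12-lipoxygenase, which converts arachidonic acid to a hydroperoxide that is reduced to 12-HETE. The gene (ENSMUSG00000000320) lies at chr11:70241457-70255353 on the minus strand in GRCm38. On high-fat diet it had 101, 94.0, 79.9 and 158 normalized counts in antibody libraries, against 51.7, 38.9, 38.2 and 33.1 in untreated libraries. On control diet it had 113, 64.8, 72.2 and 72.4 in antibody libraries, against 32.2, 47.1, 32.6 and 45.5 in untreated libraries. All 8 antibody libraries were above all 8 untreated libraries. The log2 difference was 1.37 ± 0.23 (SE) on high-fat diet and 1.003 ± 0.232 on control diet. With replicate 2 of the untreated high-fat and replicate 3 of the untreated control-diet group left out it was 1.36 and 0.92. These values chose the gene, so they describe it and carry no test. In bulk tissue, more cells of a type and more RNA per cell cannot be told apart.

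Alox12 was not chosen by the diet comparisons, but these share libraries with the antibody comparisons that chose it. Their values are therefore not independent of the choice, and neither passed for Alox12. Its mean was 40.5 ± 7.93 in untreated mice on high-fat diet and 39.4 ± 8.06 in untreated mice on control diet (SD, n = 4 each). The log2 difference was 0.04 ± 0.23, with a 95% interval of -0.45 to 0.54 (limma adjusted p = 0.918), and its sign changed when either untreated library numbered 1 or untreated control-diet replicate 3 was left out. In antibody-treated mice the mean was 108 ± 34.4 on high-fat diet and 80.5 ± 21.8 on control diet (SD, n = 4 each). That difference, 0.41 ± 0.23, did not pass either (limma adjusted p = 0.362).

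Platelet and megakaryocyte markers, of which 5 of 9 were in the table and none was at 0, overlapped between antibody and untreated libraries on both diets. They summed to between 1257 and 1835 in the high-fat antibody libraries and to between 1338 and 2669 in the untreated ones. On control diet the sums ran from 1262 to 1791 with antibody and from 1125 to 1964 without it. The markers Gp9, Gp1bb, Gp6 and Tubb1 had no row, so platelets were covered only in part. In every group the library with the highest platelet sum also had the highest macrophage marker sum. The lowest sums coincided too, except in the high-fat antibody group. The part of platelets in the Alox12 values was not tested.

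**Figure D2:**
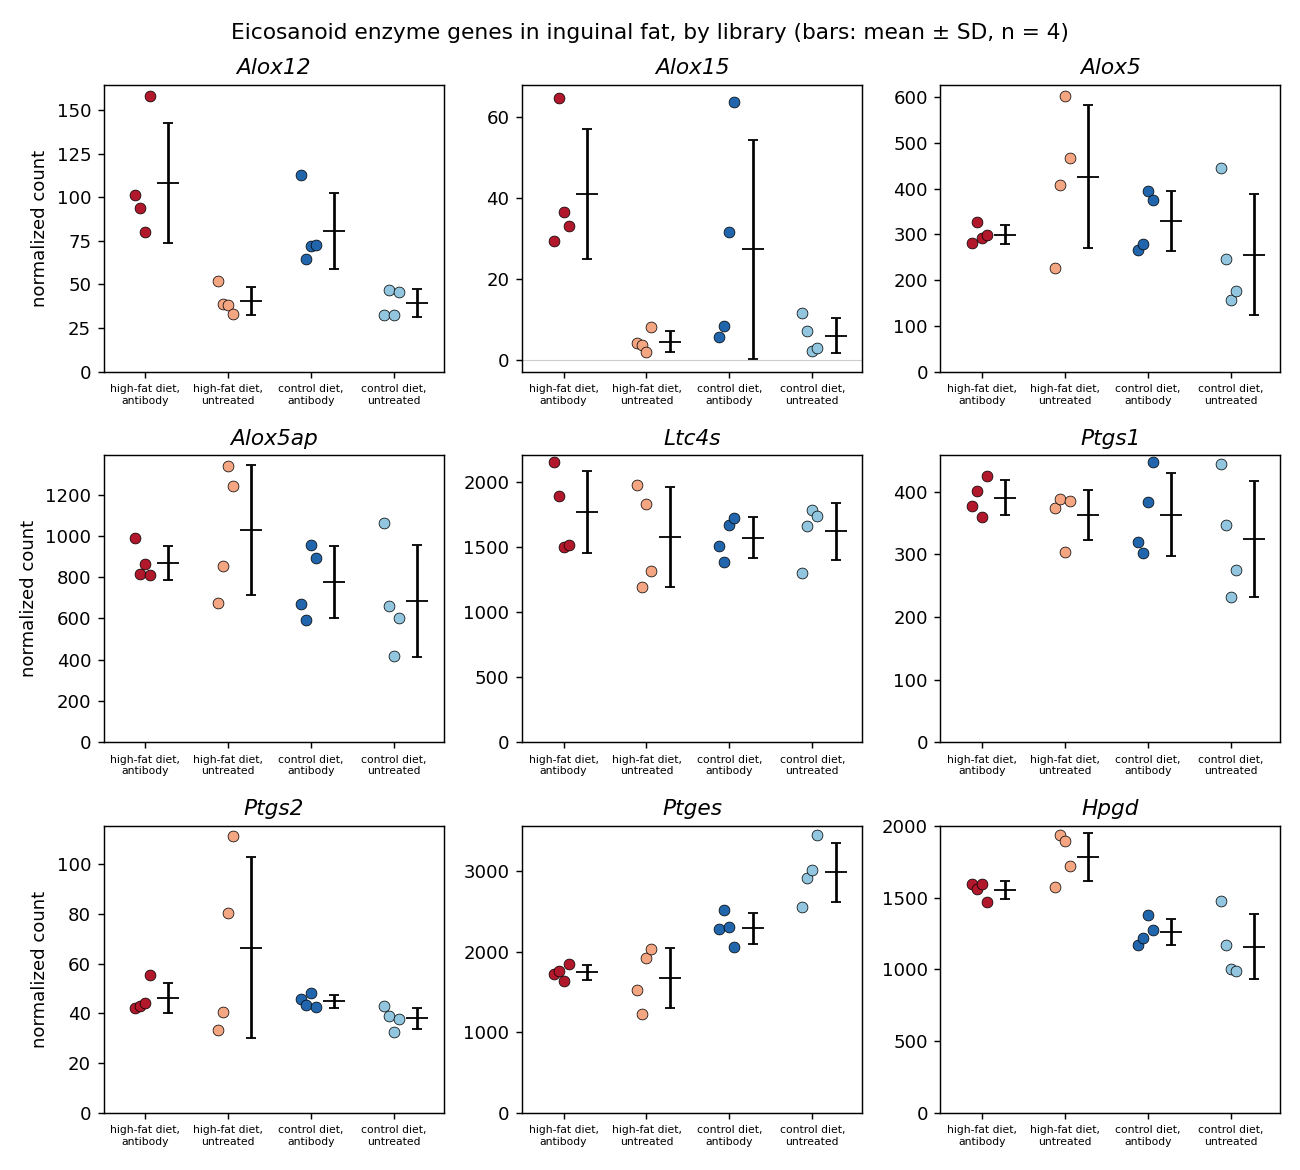
Normalized counts of the 9 genes in each library (coloured points), with the mean and SD of each group of 4 as a bar beside them. Alox12 separates antibody from untreated libraries on both diets, Alox15 on high-fat diet, and Ptges and Hpgd separate high-fat from control diet within the antibody and within the untreated libraries.

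The 5 genes whose log2 values followed Alox12 most closely over the 16 libraries were Gstt2 (Pearson r = 0.917), Ampd2 (0.882), Chd4 (0.873), Mecom (0.866) and Adamts6 (0.863). The libraries share the group differences that chose Alox12. With group means subtracted, the correlations were 0.731 for Gstt2, 0.570 for Ampd2, 0.437 for Chd4, 0.453 for Mecom and 0.356 for Adamts6. Gstt2 averaged 1303 ± 213 normalized counts in antibody and 915 ± 171 in untreated libraries on high-fat diet, and 1160 ± 52.8 in antibody and 847 ± 96.9 in untreated libraries on control diet (SD, n = 4 each). Among the other members, Alox15 correlated most strongly with Alox12 (0.657, ranked 321 among tested genes), and with group means subtracted the correlation was -0.31.

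The 250 bases upstream of the RefSeq start of Alox12 and of the 2 genes that passed the diet comparison, Ptges and Hpgd, are shown to place these genes side by side. Sequences are from RefSeq, build GRCm38.p6, which had an entry for 8 of the 10 genes. They are given on each gene's own strand, and capitals mark GGGCGG or its reverse complement. The windows are chr11:70255371-70255620 (minus strand) for Alox12, chr2:30903298-30903547 (minus) for Ptges and chr8:56294302-56294551 (plus) for Hpgd.

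Alox12: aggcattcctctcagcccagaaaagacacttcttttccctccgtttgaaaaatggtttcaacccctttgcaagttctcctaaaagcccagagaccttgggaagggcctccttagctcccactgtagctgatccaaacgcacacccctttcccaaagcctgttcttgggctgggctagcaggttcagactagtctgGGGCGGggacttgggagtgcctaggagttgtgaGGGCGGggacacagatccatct

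Ptges: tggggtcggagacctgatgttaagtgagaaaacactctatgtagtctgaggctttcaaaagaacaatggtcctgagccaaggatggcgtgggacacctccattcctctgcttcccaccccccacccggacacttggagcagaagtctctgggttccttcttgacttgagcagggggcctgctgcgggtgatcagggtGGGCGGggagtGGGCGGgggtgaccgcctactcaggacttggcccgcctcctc

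Hpgd: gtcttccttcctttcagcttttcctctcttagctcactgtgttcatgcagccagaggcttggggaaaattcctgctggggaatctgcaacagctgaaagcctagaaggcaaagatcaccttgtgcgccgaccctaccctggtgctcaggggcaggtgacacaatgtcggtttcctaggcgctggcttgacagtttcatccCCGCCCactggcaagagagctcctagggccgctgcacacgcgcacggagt

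GGGCGG occurred 2 times in the Alox12 window (55 and 22 bases upstream), 2 times in the Ptges window (53 and 42 bases upstream) and 1 time in the Hpgd window (50 bases upstream, reverse strand). On either strand, 32.7% of 32851 promoter windows of the same length hold it. TATAAA, held by 12.4% of the windows, and CCAAT, held by 33.8%, were not in any of the 3. The motifs do not overlap one another, and a match is a description of the letters only. The Ptges window lies inside the longer span that GENCODE gives the gene.

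Alox15 encodes the leukocyte-type 12/15-lipoxygenase, found in the mouse in resident macrophages and eosinophils. It lies at chr11:70344152-70352031 on the minus strand (ENSMUSG00000018924), 88.8 kb from Alox12, with 1 protein-coding gene, Alox12e, between them. On high-fat diet it had 29.5, 64.7, 36.6 and 33.0 normalized counts in antibody libraries, against 4.15, 3.77, 1.94 and 8.21 in untreated libraries, with no overlap. On control diet the antibody libraries had 5.59, 8.32, 31.6 and 63.8 and the untreated libraries 11.5, 7.25, 2.28 and 2.96. There, antibody replicates 3 and 4 were above every untreated library, whereas replicates 1 and 2 were within the untreated range.

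Averaged over the diets, Alox15 was higher with antibody by 2.31 ± 0.46 on the log2 scale (limma adjusted p = 0.0177), and 1.54% of the 14189 genes tested passed as higher. It had entered the test only through antibody libraries (6 above the limit on low values, against 0 untreated libraries), so the filter was met only in the group where it was high. Its antibody values and calls, here and below, are therefore a description only. With every gene tested and no such filter, the limma adjusted p was 0.0174. The call held in 16 of 16 fits that left out 1 library, with a log2 change of 2.02 to 2.57. It also held with replicate 2 of the untreated high-fat and replicate 3 of the untreated control-diet group left out (limma adjusted p = 0.0384). The call was lost under quantile normalization (limma adjusted p = 0.0759), Alox15 was not tested where the limit had to be passed in 8 libraries, and with a pseudocount of 24.49 the change was 0.89.

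Within 1 diet neither change of Alox15 passed. The log2 change was 2.98 ± 0.65 on high-fat diet (limma adjusted p = 0.0769) and 1.65 ± 0.65 on control diet (limma adjusted p = 0.339). The diet dependence, an interaction of 1.33 ± 0.92, did not pass (limma adjusted p = 0.870). Leaving out both untreated libraries numbered 1, chosen after the data were seen, the high-fat change passed (2.98, limma adjusted p = 0.0315).

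Eosinophil markers, 2 of 5 in the table and none at 0, were low. They summed to between 26.4 and 46.3 normalized counts in antibody and between 13.7 and 26.8 in untreated libraries on high-fat diet. On high-fat diet the highest antibody sum was in replicate 4, whereas replicate 2 had the most Alox15. On control diet they summed to between 16.1 and 33.0 with antibody and between 8.07 and 25.8 without it. There the 2 highest antibody sums were in replicates 3 and 4, which also had the most Alox15. Macrophage markers, 8 of 8 in the table, summed to between 33600 and 40890 in antibody and between 30840 and 59300 in untreated libraries on high-fat diet. On control diet the macrophage sums ran from 28900 to 40250 with antibody and from 23460 to 47670 without it. The 2 highest of these antibody sums were also in replicates 3 and 4. The same held for the adipocyte, platelet, mast cell, neutrophil, fibroblast, red blood cell and lymph node stroma marker sums. The match was thus not particular to eosinophil and macrophage markers. Skin and muscle marker sums were lowest in these 2 libraries, and endothelial and mural sums were neither. T and B cell markers, 6 of 6 in the table and none at 0, summed to between 130 and 187 in antibody and between 66.2 and 116 in untreated libraries on high-fat diet, with no overlap. On control diet their sums ran from 99.6 to 208 with antibody and from 86.8 to 152 without it, and the 2 lowest antibody sums were in replicates 3 and 4. The part of these cells in the Alox15 result was not tested.

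**Figure D3:**
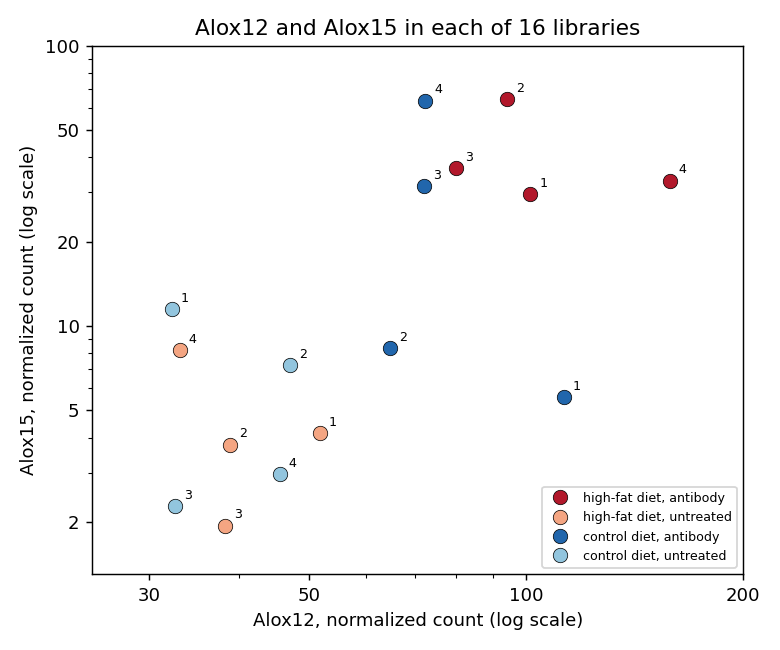
Alox15 against Alox12 in normalized counts (both axes logarithmic), 1 point per library with its replicate number, coloured by group. The 4 high-fat antibody libraries sit at upper right, while control-diet antibody replicates 1 and 2 pair Alox12 of 113 and 64.8 with Alox15 of 5.59 and 8.32.

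The 5-lipoxygenase arm showed no called antibody effect. Alox5 (chr6:116410077-116461178, minus strand) makes leukotriene A4 with the help of Alox5ap, the membrane protein that presents arachidonic acid to it. On high-fat diet Alox5 had 280.5, 328, 291 and 299 normalized counts in antibody libraries, against 227, 409, 602.5 and 467 in untreated libraries. On control diet it had 266, 278.5, 395 and 375 in antibody libraries, against 444, 246, 156.5 and 176 in untreated libraries. The untreated libraries spread on both sides of the antibody libraries on each diet. The log2 change with antibody was -0.43 ± 0.30 on high-fat diet (limma adjusted p = 0.590) and 0.46 ± 0.30 on control diet (limma adjusted p = 0.601). The interaction of -0.89 ± 0.43 did not pass (limma adjusted p = 0.826).

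Between the diets in untreated mice, Alox5 differed by 0.78 ± 0.30 (limma adjusted p = 0.105) and Alox5ap by 0.61 ± 0.26 (limma adjusted p = 0.129), neither past the threshold. For Alox5 the untreated libraries numbered 1 went against their groups: the high-fat one (227) was lowest in its group and the control-diet one (444) highest in its own. Leaving out the control-diet one alone gave Alox5 1.08 (limma adjusted p = 0.00859) and Alox5ap 0.85 (limma adjusted p = 0.0158). Leaving out the high-fat one alone gave Alox5 1.05 (limma adjusted p = 0.0289). Without both, Alox5 also passed for the antibody on high-fat diet (-0.70, limma adjusted p = 0.0464) and for the interaction (-1.47, limma adjusted p = 0.0378). The macrophage sum was highest (59300) in untreated high-fat replicate 3 and lowest (23460) in untreated control-diet replicate 3. These libraries had the most and the least Alox5. The fibroblast and progenitor sums (195700 and 73770) and the platelet and megakaryocyte sums (2669 and 1125) were also highest and lowest there. The part of these cells in the Alox5 values was not tested.

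Alox5ap (chr5:149264767-149288153, plus strand) averaged 869 ± 83.2 normalized counts in antibody and 1027 ± 316 in untreated libraries on high-fat diet, and 776 ± 174 in antibody and 685 ± 271 in untreated libraries on control diet (SD, n = 4 each). Its log2 change with antibody was -0.19 ± 0.26 on high-fat diet (limma adjusted p = 0.807) and 0.23 ± 0.26 on control diet (limma adjusted p = 0.797).

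Ltc4s (chr11:50236461-50238616, minus strand) joins leukotriene A4 to glutathione to form leukotriene C4. It averaged 1771 ± 317 normalized counts in antibody and 1582 ± 384 in untreated libraries on high-fat diet, and 1576 ± 155 in antibody and 1623 ± 220 in untreated libraries on control diet (SD, n = 4 each). Its log2 change with antibody was 0.18 ± 0.16 on high-fat diet (limma adjusted p = 0.696) and -0.04 ± 0.16 on control diet (limma adjusted p = 0.965). Between the diets it was -0.06 ± 0.16 in untreated mice (limma adjusted p = 0.837). Its exons overlap Gm26542 on the opposite strand, and the sources used here do not say whether the authors counted by strand.

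Neither cyclooxygenase gene passed in any comparison. Ptgs1 (chr2:36230426-36252272, plus strand), the constitutive enzyme, averaged 391 ± 28.2 normalized counts in antibody and 363 ± 39.8 in untreated libraries on high-fat diet, and 364 ± 65.9 in antibody and 325 ± 92.6 in untreated libraries on control diet (SD, n = 4 each). Ptgs2 (chr1:150100031-150108227, plus strand), the inducible enzyme, had 42.1, 43.1, 44.3 and 55.2 in antibody libraries and 33.3, 40.6, 80.4 and 111 in untreated libraries on high-fat diet. On control diet Ptgs2 had 45.9, 43.2, 48.01 and 42.4 in antibody libraries and 42.8, 38.8, 32.4 and 37.6 in untreated libraries. Only untreated high-fat replicates 3 and 4 exceeded 60. The same 2 libraries had the highest sums of lymph node stroma markers, 806 and 1449 (2 of 5 in the table), against 464 or less elsewhere. They also had the lowest sums of T and B cell markers, 67.5 and 66.2, against 82.5 or more elsewhere. The part of these cells in the Ptgs2 values was not tested. Between the diets in untreated mice Ptgs2 differed by 0.63 ± 0.29 (limma adjusted p = 0.151), and without untreated high-fat replicate 1 it passed (0.90, limma adjusted p = 0.0356).

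Ptges, the inducible prostaglandin E synthase (chr2:30889471-30929863, minus strand), fell with high-fat diet in untreated mice. It had 1518, 1224, 1919 and 2036 normalized counts in untreated high-fat libraries, against 2559, 2911, 3016 and 3451 in untreated control-diet libraries. The groups did not overlap, and the log2 change was -0.85 ± 0.13 (limma adjusted p = 0.0136). In antibody-treated mice Ptges had 1727, 1764, 1631 and 1846 on high-fat diet, against 2276, 2522, 2308 and 2057 on control diet, again with no overlap. That change, -0.39 ± 0.13, did not pass (limma adjusted p = 0.160).

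On control diet every antibody library of Ptges lay below every untreated library. The log2 change of -0.38 ± 0.13 did not pass (limma adjusted p = 0.295), nor did 0.08 ± 0.13 on high-fat diet (limma adjusted p = 0.845). The interaction was 0.46 ± 0.19, also not past the threshold (limma adjusted p = 0.708).

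Hpgd encodes 15-hydroxyprostaglandin dehydrogenase, which inactivates prostaglandin E (chr8:56294585-56321043, plus strand), and it rose with high-fat diet in untreated mice. It had 1577, 1941, 1895 and 1721 normalized counts in untreated high-fat libraries, against 1475, 1169, 1001 and 990 in untreated control-diet libraries. The groups did not overlap, and the log2 change was 0.64 ± 0.11 (limma adjusted p = 0.0136). In antibody-treated mice Hpgd had 1597, 1561, 1595 and 1467 on high-fat diet, against 1169, 1216, 1382 and 1274 on control diet. These groups did not overlap either, but the change of 0.30 ± 0.11 did not pass (limma adjusted p = 0.174). With antibody the log2 difference was -0.19 ± 0.11 on high-fat diet (limma adjusted p = 0.474) and 0.14 ± 0.11 on control diet (limma adjusted p = 0.687), neither past the threshold.

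Ptges and Hpgd were the 2 of 9 genes that passed between the diets in untreated mice, 1 lower and 1 higher. Of all genes tested, 8.15% passed, 5.17% as lower and 2.98% as higher. The median log2 change was 0.195 over the 9 genes and 0.02 over all genes. Both calls ended without untreated high-fat replicate 4 (limma adjusted p = 0.0527 for Ptges and 0.0546 for Hpgd) or untreated control-diet replicate 4 (0.0534 and 0.0589). They also ended with only the groups compared (limma adjusted p = 0.162 for each), and with replicate 2 of the untreated high-fat and replicate 3 of the untreated control-diet group left out, where the changes were -0.70 (limma adjusted p = 0.0846) and 0.53 (0.105). Without both untreated libraries numbered 1, 5 of the 9 passed: Ptges (-0.89), Hpgd (0.82), Alox5 (1.36), Alox5ap (1.03) and Ptgs2 (0.96). At that setting 32.2% of all genes passed.

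In the antibody comparisons the counts without Alox12 were 0 of 8 on high-fat diet, where 1 of the 8 had an unadjusted limma p under 0.05, and 0 of 8 on control diet, where 2 had. Of all genes 13.5% on high-fat diet and 11.6% on control diet had such a p. On high-fat diet 0.0775% of all genes passed, 0.0352% as higher and 0.0423% as lower. On control diet 0.0987% passed, 0.0564% as higher and 0.0423% as lower. Averaged over the diets 1 of 8 passed, Alox15, against 2.52% of all genes (1.54% as higher and 0.987% as lower). Alox15 had met the filter only through antibody libraries, where it was high, so this count is a description only. With the filter in at least 8 libraries Alox15 was not tested and 0 members passed. The median log2 change of the 8 was 0.02, against -0.01 for all genes. Between the diets with antibody 0 of 9 passed, against 0.00705% of all genes, and 2 had an unadjusted limma p under 0.05, against 18.1% of all genes. For the interaction 0 of 8 passed, with 2 at an unadjusted limma p under 0.05, and 0% of all genes did, with 877 genes at an unadjusted limma p under 0.05. The comparison of diets in untreated mice shares its untreated libraries with the antibody comparisons, and the comparison of diets with antibody shares the antibody libraries.

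**Figure D4:**
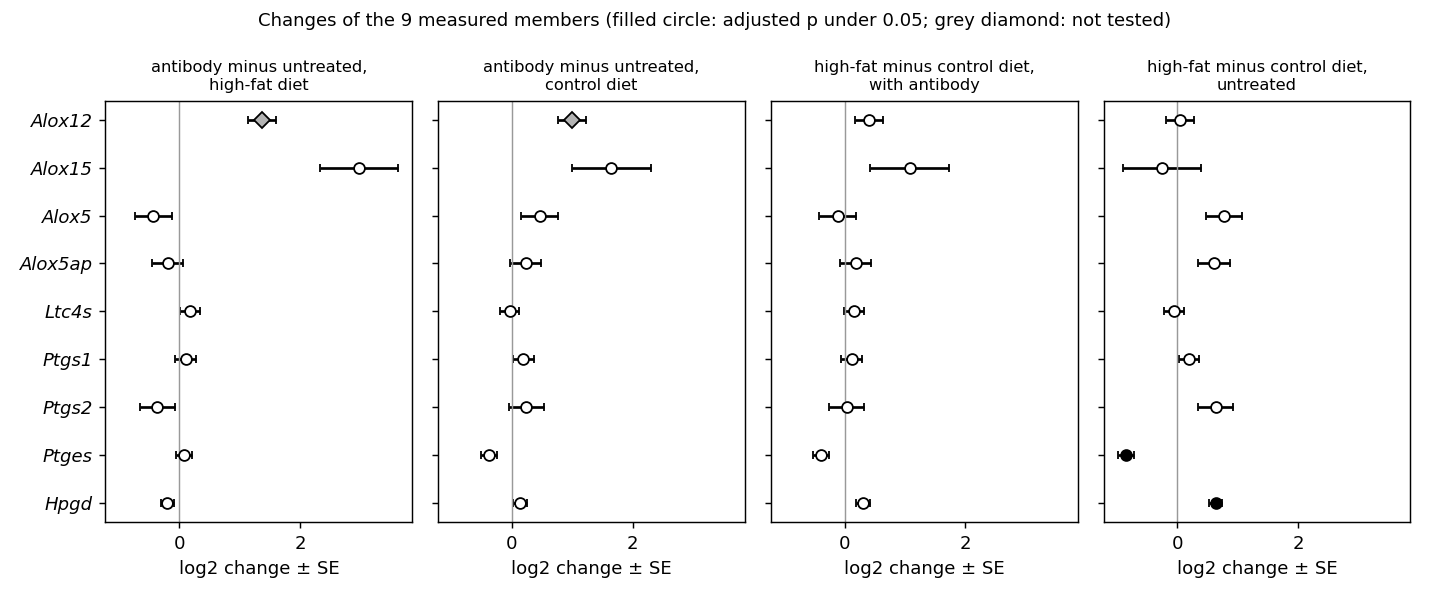
Log2 change ± SE of the 9 genes in 4 comparisons, with filled circles for an adjusted p under 0.05, open circles otherwise and grey diamonds for Alox12 where its values chose it. Only Ptges (-0.85) and Hpgd (0.64) are filled, in the panel for diet in untreated mice, and Alox15 lies farthest to the right, at 2.98 for the antibody on high-fat diet.

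A wider list of 64 genes, from phospholipases to receptors, had 50 rows in the table, of which 48 were tested; Ptger1 and Fpr2 were too low, and 14 were not analysed here. Between the diets in untreated mice 2 of the 48 rose, 7 fell and 39 did not pass, with a median log2 change of 0.10. Of all genes 8.15% passed, 2.98% as higher and 5.17% as lower. The counts by role below stand beside the same shares, and 1 call in a list of few genes does not set that list apart. In 16 fits that each left out 1 library, the call held in 10 or 11 for Ptges2, Gpx4 and Mgst2 and in 3 to 6 for the other 6 genes. None of the 9 passed with only the groups compared, or with replicate 2 of the untreated high-fat and replicate 3 of the untreated control-diet group left out. Without both untreated libraries numbered 1, all 9 did, as did 32.2% of all genes.

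Among the prostanoid synthases, 2 of 11 fell. Ptges2, a second prostaglandin E synthase, had 752, 668, 709 and 638 normalized counts in untreated high-fat libraries, against 770, 1129, 1644 and 1510 in untreated control-diet libraries. Its groups did not overlap (-0.81 ± 0.18, limma adjusted p = 0.0266), although control-diet replicate 1 came close to the high-fat values. Cbr1, a carbonyl reductase that acts on prostaglandin E, changed by -0.43 ± 0.12 (limma adjusted p = 0.0438).

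Of the genes for transport and breakdown, 1 of 4 rose and 1 fell. Slco2a1, the prostaglandin uptake transporter, had 199, 308, 624 and 516 normalized counts in untreated high-fat libraries, against 258, 200, 161.5 and 146 in untreated control-diet libraries. High-fat replicate 1 alone overlapped the control-diet range, and the change was 1.0 ± 0.28 (limma adjusted p = 0.0445). Ptgr2, which reduces the keto product of Hpgd, changed by -0.66 ± 0.18 (limma adjusted p = 0.0417), and its exons overlap Gm47484 on the opposite strand.

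Gpx4, which reduces lipid hydroperoxides, had 10990, 7448, 8678 and 8192 normalized counts in untreated high-fat libraries, against 9917, 13710, 17730 and 18620 in untreated control-diet libraries, and fell (-0.74 ± 0.17, limma adjusted p = 0.0299). Control-diet replicate 1 was within the high-fat range. In leukotriene processing 1 of 6 fell, Mgst2, a microsomal glutathione transferase (-0.90 ± 0.22, limma adjusted p = 0.0324). In arachidonate release 1 of 9 fell, the phospholipase Pla2g6 (-0.31 ± 0.09, limma adjusted p = 0.0498), and in the cytochrome and epoxide arm 1 of 7 fell, the epoxygenase Cyp2j6 (-0.30 ± 0.08, limma adjusted p = 0.0413).

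None of 6 prostanoid receptors passed, and 3 had an unadjusted limma p under 0.05, as did 30.3% of all genes. Of 4 leukotriene and lipoxin receptors 1 rose: Cmklr1, the receptor for chemerin and resolvin E1, had 6575, 6759, 5397 and 6998 normalized counts in untreated high-fat libraries, against 3819, 3281, 4368 and 3710 in untreated control-diet libraries. These groups did not overlap (0.76 ± 0.21, limma adjusted p = 0.0429). On control diet Cmklr1 had 5371, 6229, 4828 and 9121 in antibody libraries, all above the untreated ones, but that change of 0.71 ± 0.21 did not pass (limma adjusted p = 0.194). Mast cell markers, 8 of 8 in the table, summed to between 2603 and 3703 in untreated high-fat and between 2342 and 2693 in untreated control-diet libraries. In this comparison 4 of the 6 tested rose, as did 2.98% of all genes. No gene passed with only the groups compared, or without either untreated library numbered 4. The part of mast cells in these results was not tested.

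**Figure D5:**
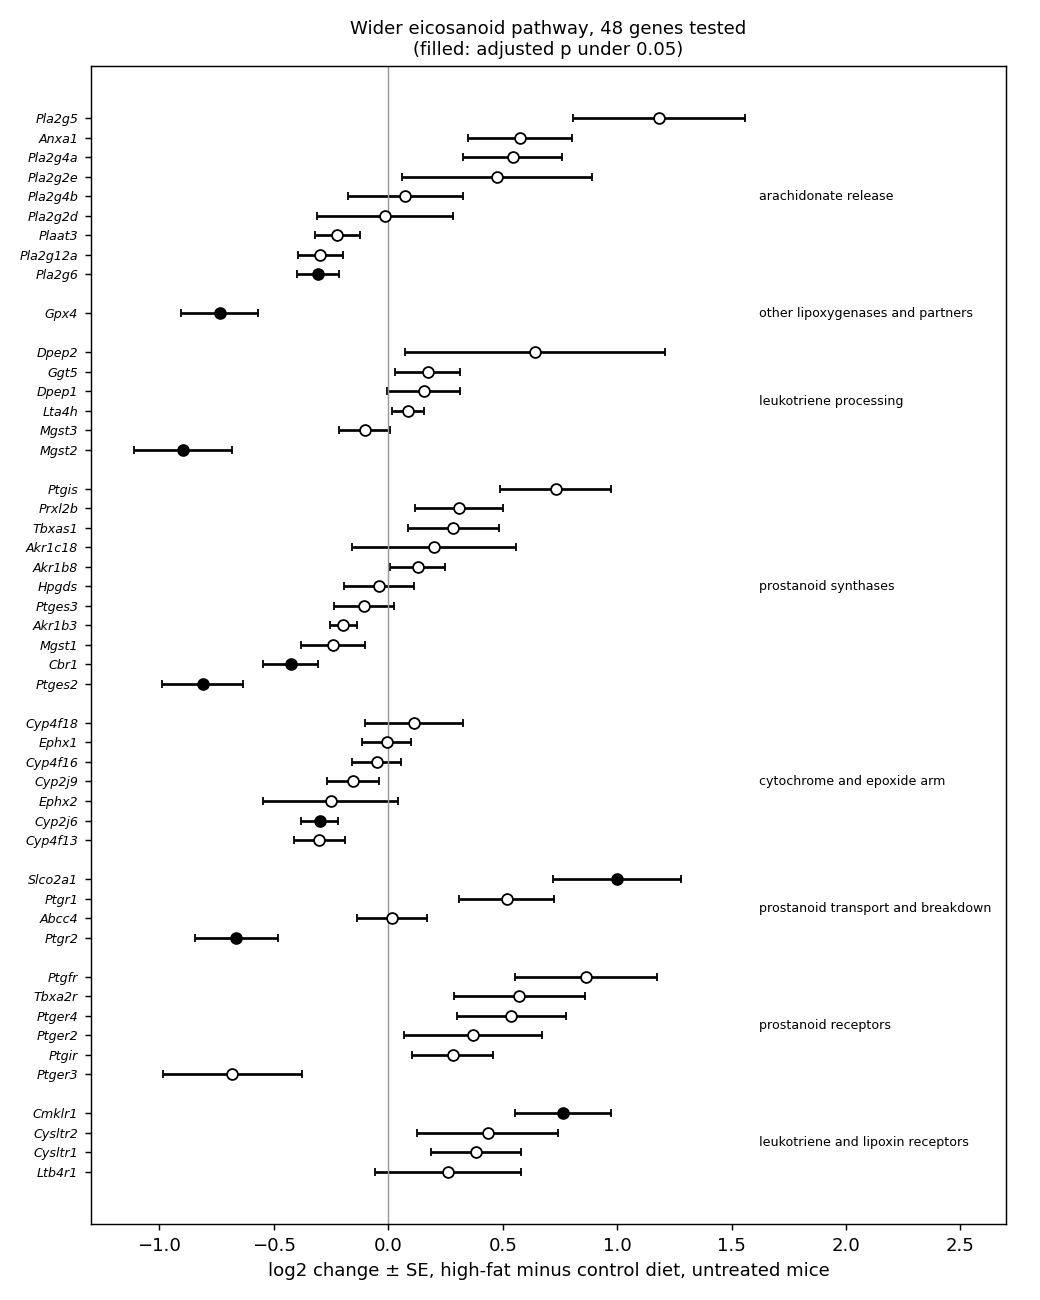
Log2 change ± SE between high-fat and control diet in untreated mice for the 48 tested genes of the wider list, grouped by role, with filled points for an adjusted p under 0.05. The 9 filled points are 7 falls, from -0.90 (Mgst2) to -0.30 (Cyp2j6), and 2 rises, Slco2a1 (1.0) and Cmklr1 (0.76).

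With antibody averaged over the diets, 1 of the 48 passed, against 2.52% of all genes. Hpgds, the haematopoietic prostaglandin D synthase, had 422.5, 256.5, 259 and 278 normalized counts in antibody libraries and 183, 221, 179 and 187 in untreated libraries on high-fat diet, with no overlap. On control diet it had 257, 223, 225 and 228 in antibody libraries and 239, 202, 199 and 159 in untreated libraries, where 1 untreated library was within the antibody range. It rose by 0.43 ± 0.11 (limma adjusted p = 0.0486). The call held in 3 of 16 fits that left out 1 library, with a highest limma adjusted p of 0.104. On high-fat diet alone the change was 0.63 ± 0.15 (limma adjusted p = 0.107) and on control diet 0.24 ± 0.15 (limma adjusted p = 0.598). None of the 48 passed by limma in the other 4 comparisons, in which 4 (antibody on high-fat diet), 4 (antibody on control diet), 3 (diet with antibody) and 2 (interaction) had an unadjusted p under 0.05. Over all genes that share was 13.5%, 11.6%, 18.1% and 6.18% in the same order.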

How the data were processed

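The authors deposited a linear signal, named normalized counts, for 16091 genes and 16 libraries. Tools listed in the submitters' processing notes are featureCounts and Subread 1.6.2, limma 3.42.2, STAR 2.7.0e and fastp 0.20.1, with builds mm10 and GRCm38. Their roles and the normalization are not stated in the sources used here. Whole reads could not be recovered (1.525% to 9.816% of values were whole multiples of the smallest step, tolerance 0.02), so read depth is unknown and no count model was run.

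Genes above 24.49 (the median column total divided by 1e6, standing for 1 CPM) in at least 4 libraries were tested on log2(value + 1), which understates changes of low genes. limma 3.58.1 in R 4.3.3 fitted 1 mean per group with a variance trend (residual degrees of freedom 12, prior 3.07). Tests were two-sided, with Benjamini-Hochberg adjustment over all 14189 genes in each of 6 contrasts, at a threshold of 0.05. The fit was checked on simulated data. Exon lengths and coordinates come from GENCODE vM21, in which 16081 identifiers were found. Plaat3 and Prxl2b were matched by identifier.

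The members, the wider list and the marker lists were chosen with earlier results of these data known. Named were all members, list genes past the threshold and the 5 genes most like Alox12. Alternatives changed the pseudocount, filter, variance trend, scaling, samples in the fit, a replicate block and left out each library.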

Additional observations from a re-analysis of the deposited data

Results flagged for a closer look

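Within each group of 4, 36 sets of values were examined for a library apart from the other 3, and 3 were found; chance gives about 1 in 20. Alox12 was 113 in control-diet antibody replicate 1, against 64.8 to 72.4 in the other 3 libraries of its group. Ptgs2 was 55.2 in high-fat antibody replicate 4, against 42.1 to 44.3 in its group. Ptgs1 was 304 in untreated high-fat replicate 3, against 374 to 388 in its group.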

How the results depend on the processing

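Of the values of members and named genes of the wider list under alternatives, 1665 kept direction and side of the threshold, 157 lost and 20 gained the call, 42 changed sign and 1 moved. All 157 came from results called in the report. Most of the 1665 came from results not called there, which had no call to lose. Among called results the share lost was therefore larger than these totals show. For Alox12 in the antibody comparisons, which carry no test, no threshold was used. There a value counted as kept if its shift was under the mean SD within the groups compared, and otherwise as moved.

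Counts over all genes varied. With only the groups compared, the number past the threshold was 4 for the antibody on high-fat diet (11 with all groups), 0 on control diet (14), 0 for diet in untreated mice (1157) and 641 for diet with antibody (1). Without a variance trend it was 3 for the antibody on control diet and 726 for diet in untreated mice. For diet with antibody it was 0 with a pseudocount of 24.49, 2 with no filter and 4 with rescaled totals. Without replicate 3 of the untreated control-diet and replicate 2 of the untreated high-fat group it was 0 for diet in untreated mice and 246 for diet with antibody. Without both untreated libraries numbered 1, a setting chosen after seeing the data, it was 629 and 89 for the antibody on high-fat and control diet, 593 averaged (358), 4541 and 394 for diet in untreated and antibody-treated mice, and 327 for the interaction (0).

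Leaving out 1 library gave 1 to 271 genes for the antibody on high-fat diet, 0 to 75 on control diet, 144 to 535 averaged, 0 to 4115 for diet in untreated mice, 0 to 225 for diet with antibody and 0 to 1 for the interaction. The 0 for diet in untreated mice came without untreated high-fat replicate 4 or untreated control-diet replicate 4.

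Of the members, averaged over diets 0 passed (1 in the report) with the filter in at least 8 libraries, which left Alox15 untested, and 0 under quantile normalization. For diet in untreated mice 0 passed (2) with only the groups compared and 0 without replicate 3 of the untreated control-diet and replicate 2 of the untreated high-fat group. The number was 5 without both libraries numbered 1, and 0 to 4 leaving out 1 library. For diet with antibody 2 passed (0) with only the groups compared, Ptges (limma adjusted p = 0.0165) and Hpgd (0.0339), and 1, Hpgd, without both libraries numbered 1. There 2 passed for the antibody on high-fat diet, Alox15 and Alox5, and 2 for the interaction, Alox5 and Hpgd. Where not stated otherwise, the cause was not tested.

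Replicate numbers did not pair the libraries: deviations of same-numbered libraries correlated at -0.54 to 0.49, and not every library matched its own number best. With the replicate block, 2 genes passed for the antibody on high-fat diet, 2 on control diet, 123 averaged, 0 for either diet comparison and 1 for the interaction. The block gave Alox15 a limma adjusted p of 0.0522 averaged over diets and Ptges and Hpgd 0.0556 for diet in untreated mice, so that 0 members passed in these.

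Changes of sign were all of values past no threshold. Without replicate 3 of the untreated control-diet and replicate 2 of the untreated high-fat group, Ptges for the antibody on high-fat diet was -0.0565, Ltc4s 0.0126 on control diet, Alox5 -0.0736 and Alox5ap -0.121 averaged, Alox12 -0.026 and Ltc4s 0.115 for diet in untreated mice, and Ptgs1 0.103 for the interaction. Rescaled totals, which moved the median of all genes for diet in untreated mice to 0.122, gave Ltc4s 0.000958 for the antibody on control diet and 0.0438 for diet in untreated mice. Quantile normalization gave Alox5 -0.00472 averaged and Alox12 -0.0573 for diet in untreated mice. Without both libraries numbered 1, Hpgd was 0.00458 averaged, and for diet in untreated mice Alox12 was -0.165 and Alox15 0.0903. Leaving out 1 library gave Ptges -0.0565 to 0.188 for the antibody on high-fat diet and Ltc4s -0.139 to 0.0215 on control diet. Averaged, it gave Alox5 -0.118 to 0.172, Alox5ap -0.0854 to 0.139, Ptgs2 -0.193 to 0.0924 and Hpgd -0.0623 to 0.0334. For diet in untreated mice it gave Alox12 -0.079 to 0.134, Alox15 -0.547 to 0.0971 and Ltc4s -0.177 to 0.0657. For diet with antibody it gave Ptgs2 -0.0529 to 0.0745, and for the interaction Ptgs1 -0.242 to 0.0687.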

Other observations

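For most members the spread between libraries was lower with antibody, as it was for most tested genes. On high-fat diet the coefficient of variation was lower in antibody than in untreated libraries for 8 of the 9 members, all but Alox12, and for 55.1% of all tested genes. On control diet it was lower for 7 of the 9, all but Alox12 and Alox15, which is near the share of all tested genes (75.7%). For Hpgd on high-fat diet the SD was 61.0 normalized counts with antibody and 167 without it, and for Ptges on control diet 190.4 with antibody and 367 without it. In both cases the untreated library numbered 1 had the lowest value of its untreated group (1577 for Hpgd, 2559 for Ptges), on the side of the other diet. The part of these libraries in the spread was not tested.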
